A study of Mus musculus with 6 samples.

Results

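Complement components and receptors were examined in RNA-seq data of bone marrow-derived macrophages (BMDMs), which arise from marrow cells cultured with the growth factor M-CSF. The 9 genes were taken by symbol from the deposited count and TPM tables: C1qa, C1qb and C1qc for the subunits of C1q, C3, Cfb and Cfp for the alternative pathway, and C3ar1, C5ar1 and C5ar2 for the anaphylatoxin receptors. All 9 symbols were found among the 23935 symbols of the tables, and 8 of them passed the filter on low counts, Cfb being the exception. The question was whether their expression differed between PKM2ΔMAC and PKM2FL/FL BMDMs.

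Each genotype was represented by 3 libraries, each labelled with its own mouse number. Both genotypes carry the floxed Pkm allele, and PKM2ΔMAC mice also carry LysM-Cre, in which the Lyz2 locus drives Cre recombinase in macrophages and also in neutrophils, while the PKM2FL/FL littermates lack Cre. All cultures were differentiated for 7 days and are labelled as primed over 16 h with LPS, a bacterial outer membrane component (10 ng/mL), and IFN-γ (25 ng/mL). The age of the mice behind these libraries is not given in the sources used here, and untreated cultures were not analysed here.

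Complement is a cascade of plasma proteins that marks surfaces for uptake and lysis. C1q opens the classical pathway when it binds antibody or dying cells, C3 is the protein on which all pathways meet, and its fragment C3b pairs with factor B, stabilised by properdin, to amplify the reaction. The small fragments C3a and C5a are anaphylatoxins that act on receptors of myeloid cells. Most complement proteins of the blood come from the liver, whereas C1q and properdin are made chiefly by myeloid cells, so that macrophages are their known local source.

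Library totals were between 49957449 and 54524651 counts, and all levels were put on a common scale as CPM, counts divided by the TMM-scaled library total. For a gene with a count of 0, the upper limit of 3 counts was between 0.0546 and 0.0604 CPM, for counting error only. The mean CPM of Pkm was 1706 ± 8.08 for PKM2FL/FL and 1068 ± 125 for PKM2ΔMAC (SD, n = 3 each), which checks the deletion only in part, since PKM1 and PKM2 share this gene. Lyz2 was at 17825 ± 860 and 28.4 ± 3.8 CPM. The list of 7 macrophage markers includes Lyz2, the only one of them called. The summed CPM of the 7 was between 23544 and 25264 in PKM2FL/FL and between 6562 and 7343 in PKM2ΔMAC. Of the other markers, Csf1r was between 2925 and 3755 CPM over the libraries, and Mertk, the lowest, between 93 and 139 CPM. The summed CPM of 8 neutrophil markers was between 20.3 and 48.8 in PKM2FL/FL and between 90.1 and 170 in PKM2ΔMAC, without overlap, although 0 of the 8 were called. Stromal markers such as Col1a1 were abundant in both, at summed values between 5000.3 and 5590.1 in PKM2FL/FL and between 5004 and 6313 in PKM2ΔMAC. The sums of 6 cell cycle genes also did not overlap, at 424 to 439 CPM in PKM2FL/FL and 542, 691 and 526 CPM in PKM2ΔMAC replicates 1 to 3, although 0 of the 6 were called (adjusted p between 0.347 and 0.515). Genes that LPS and IFN-γ are known to induce in mouse macrophages were at low levels, with between 2 and 26 counts per library for Nos2, between 2 and 6 for Il12b and between 22 and 50 for Cxcl9, although Irf1 was between 53.6 and 56.8 CPM. It is therefore in doubt whether these libraries are of treated cells, and the treatment is given here as labelled. Since no untreated library was compared, no value below measures a response to LPS or IFN-γ.

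**Figure D1:**
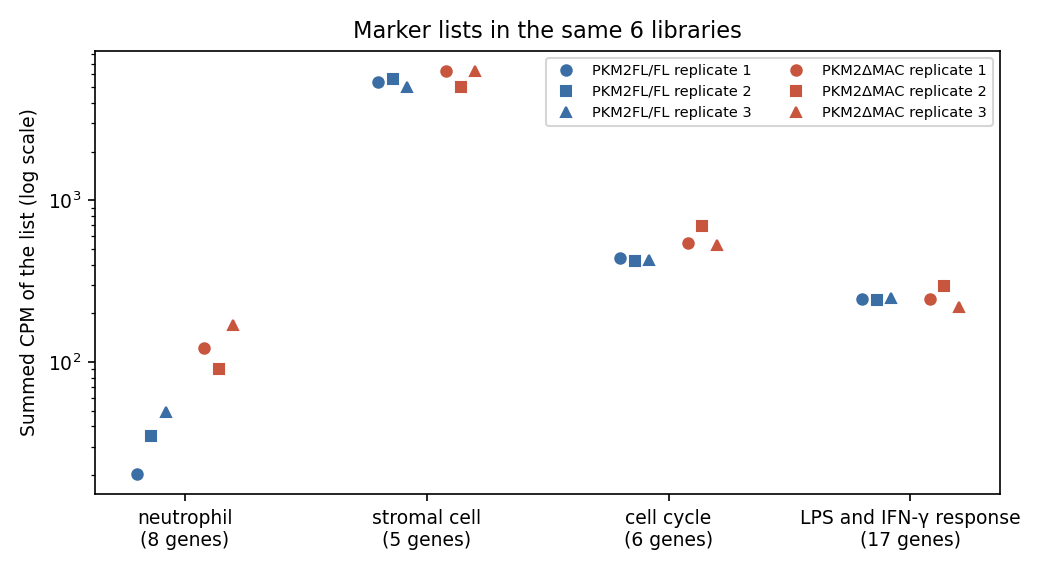
Summed CPM (log scale) of 4 marker lists in each of the 6 libraries, with colour for genotype and symbol shape for the replicate. The sum of the 8 neutrophil markers was 90.1 or more in each PKM2ΔMAC library and 48.8 or less in each PKM2FL/FL library, the sums of the cell cycle genes did not overlap either, with 0 genes of both lists called, and the 17 LPS and IFN-γ response genes were between 220 and 297 CPM in sum.

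None of the 8 members that entered the fit passed an adjusted p of 0.05 (0 of 8) in the quasi-likelihood test of edgeR (Benjamini-Hochberg, over 16516 genes), where 0.412% of all genes were called. DESeq2 and limma-trend on the TPM values also called 0 of them. At an unadjusted p under 0.05, 2 of 8 were found, C1qc and C3, against 9.83% of all genes. That count was 4 with a replicate block, where C1qa and Cfp joined, and 0 without PKM2FL/FL replicate 1. The genes also changed with the fit. The count was 1 on 2 of the TPM fits (C3), 1 without PKM2FL/FL replicate 2 (C5ar2) and 1 without PKM2ΔMAC replicate 1 (Cfp). On unfiltered TPM the 2 genes were C3 and C3ar1. C1qc and C3 were also the 2 of 8 whose libraries did not overlap between genotypes in CPM, against 17.2% of all genes. The direction was divided evenly, with 4 genes higher and 4 lower in PKM2ΔMAC, and the median log2 fold change of the 8 genes was -0.011, beside -0.00021 over all genes tested. In the edgeR fit of all 6 libraries, the largest difference of the 8 was 0.19 on the log2 scale, that of C5ar2. The median size was 0.115, beside 0.0931 over all genes. C5ar2 was not the largest in every fit. Without PKM2FL/FL replicate 1 it was at -0.092 and C1qa at -0.16. With limma-trend on log2(TPM + 1) it was at -0.11, and C3 and Cfp were at 0.19.

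**Figure D2:**
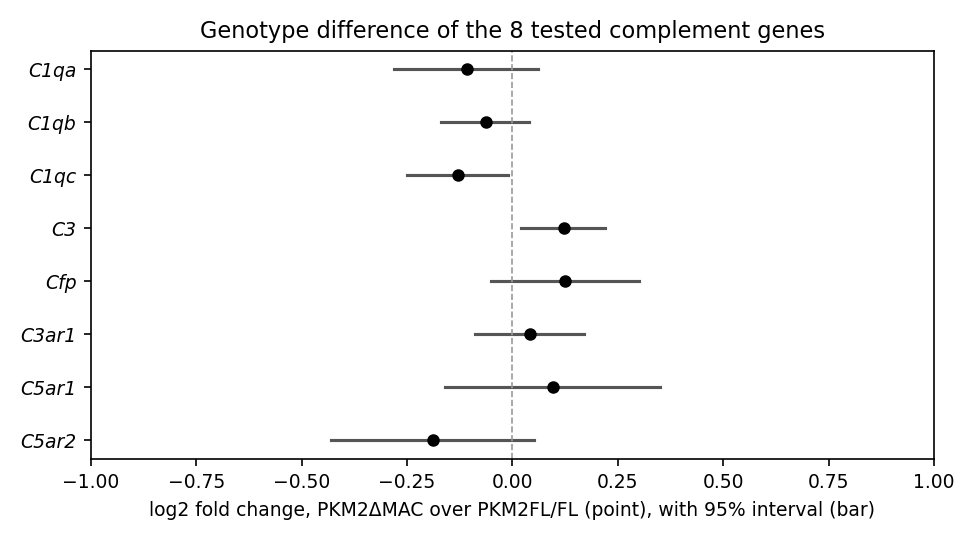
Log2 fold change of PKM2ΔMAC over PKM2FL/FL (points) with 95% intervals (bars) from edgeR's quasi-likelihood fit, for the 8 complement genes that passed the filter on low counts. All points lie between -0.19 and 0.12, and the intervals of C1qc (-0.25 to -0.01) and C3 (0.02 to 0.22) leave out 0 before adjustment for the number of genes tested.

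The levels of the 9 genes spanned a wide range and kept 1 order in all 6 libraries, in which the last place of Cfb is that of its counted reads only, since most of its exonic bases overlap another annotation. On the TPM scale, which divides counts by gene length and so allows genes to be compared, mean levels over the 6 libraries were 5849.6 for C1qb, 2804 for C1qa, 2131 for C1qc, 1079 for C3ar1, 469 for C5ar1, 346 for Cfp, 80.9 for C3, 16.3 for C5ar2 and 0.0885 for Cfb. Each neighbour in this order was apart from the next, since the lowest library of the higher gene exceeded the highest library of the lower gene for all 8 neighbouring pairs. The closest pair by ratio were C1qa and C1qc, with C1qa between 1.22 and 1.47 times as high. C1qb ranked between 10 and 15 of all 23935 symbols by TPM in a library, C1qa between 26 and 34, C1qc between 39 and 44 and C3ar1 between 81 and 94, so that the macrophage-made recognition subunits and the C3a receptor were among the most abundant transcripts. C3 ranked between 1876 and 2261.

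**Figure D3:**
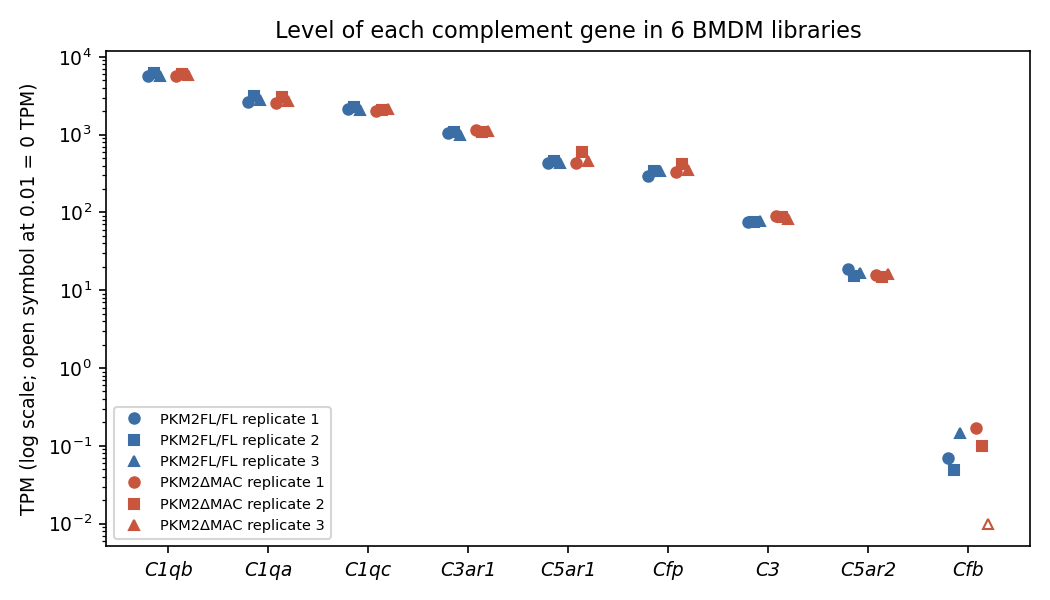
TPM (log scale) of each of the 9 complement genes in the 6 libraries, ordered by mean level, with colour for genotype and symbol shape for the replicate. C1qb lies near 5849.6 TPM and Cfb below 0.2 TPM, and for each gene the genotypes lie close together compared with the distance between genes; the open symbol marks the library in which Cfb is at 0.

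C1q is assembled from equal numbers of the A, B and C chains, encoded by neighbouring genes. C1qb, C1qc and C1qa lie on chromosome 4 (GRCm38, minus strand) at 136880129 to 136886187, 136889804 to 136893065 and 136895917 to 136898803 in GENCODE M21, a cluster of 18.7 kb with gaps of 3.62 kb and 2.85 kb, and no other annotated gene overlaps them. The 250 bases before the RefSeq start of C1qb and C1qc are shown, since these neighbours were both among the most abundant transcripts. The RefSeq start of C1qc lies inside its GENCODE span, so its window lies partly within that span. Capitals mark the letters GAGGAA on either strand, a core sequence bound by PU.1, the lineage factor of myeloid cells.
C1qb, chr4:136886201-136886450 (minus strand, GRCm38.p6): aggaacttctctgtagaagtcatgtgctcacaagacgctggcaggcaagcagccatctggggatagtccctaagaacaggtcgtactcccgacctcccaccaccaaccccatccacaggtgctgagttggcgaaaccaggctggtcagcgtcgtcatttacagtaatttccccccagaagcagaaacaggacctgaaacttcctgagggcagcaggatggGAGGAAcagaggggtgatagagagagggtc
C1qc, chr4:136892915-136893164 (minus strand, GRCm38.p6): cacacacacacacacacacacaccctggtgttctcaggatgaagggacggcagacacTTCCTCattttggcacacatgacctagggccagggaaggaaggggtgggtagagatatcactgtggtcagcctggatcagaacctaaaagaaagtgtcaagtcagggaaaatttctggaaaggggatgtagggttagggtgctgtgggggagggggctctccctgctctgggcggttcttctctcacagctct
Each window holds 1 GAGGAA, on the shown strand for C1qb and on the other strand for C1qc, where it reads TTCCTC. Of 32851 RefSeq promoter windows of this length, 23.3% hold at least 1. A match of letters is a description and not a measured site.

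C1qa, the A chain gene, was at 777, 922 and 827 CPM in the PKM2FL/FL libraries, in the order of replicates 1 to 3 used throughout, and at 727, 838 and 781 CPM in the PKM2ΔMAC libraries. The genotypes overlapped, and replicate 2 was the highest library of each. Genotype means were 842 ± 73.9 and 782 ± 55.1 CPM (SD, n = 3 each), which on the log2 scale was a difference of -0.11 (SE 0.075, adjusted p = 0.701). The 95% interval of the difference ran from -17.5% to 4.54%.

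C1qb, the B chain gene and the most abundant of the 9, was at 1765, 1886 and 1783 CPM in PKM2FL/FL and at 1721, 1707 and 1776 CPM in PKM2ΔMAC. Only the highest PKM2ΔMAC library lay above the lowest PKM2FL/FL library. The log2 fold change was -0.06 with an SE of 0.047 (adjusted p = 0.73), with an interval from -11.1% to 3.15%. On the TPM scale its log2 fold change was 0.01, in the other direction, because Lyz2 held between 4.48% and 4.96% of all TPM in PKM2FL/FL and less than 0.01% in PKM2ΔMAC, and TPM of a library sum to a fixed total. After Lyz2 was removed and the libraries rescaled, an alternative added after the data were seen, it was -0.06 again. The same shift moved C1qa to -0.033 and C1qc to -0.058 on the TPM scale, and rescaling returned them to -0.1 and -0.13. Among the genes described further on, the TPM + 1 values were 0.19 for C3, 0.19 for Cfp, 0.16 for C5ar1 and -0.11 for C5ar2, and after rescaling 0.12, 0.12, 0.087 and -0.17.

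C1qc, the C chain gene, was at 1186, 1247 and 1164 CPM in PKM2FL/FL and at 1075, 1059.6 and 1153 CPM in PKM2ΔMAC. Every PKM2ΔMAC library was below every PKM2FL/FL library (two-sided exact permutation test, p = 0.1, the smallest that 3 against 3 can give), although the TPM values of the genotypes overlapped. The log2 fold change was -0.13 (SE 0.051, unadjusted p = 0.0329, adjusted p = 0.451), a difference of -8.59%. It was not called under any of 17 alternatives, with adjusted p between 0.279 and 0.79.

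The 3 chains together made up between 1.03% and 1.16% of all TPM in a library, 10349.6, 11586 and 10588 TPM in PKM2FL/FL and 10296, 11158 and 10733 TPM in PKM2ΔMAC. C1qb contributed between 53.1% and 55.7% of that sum, C1qa between 24.7% and 27.6% and C1qc between 18.8% and 20.6%, so that the transcripts were not in equal amounts although the protein chains are. The within-library log2 ratio of C1qa to C1qc was 0.38 ± 0.089 in PKM2FL/FL and 0.4 ± 0.13 in PKM2ΔMAC (SD, n = 3 each; exact permutation test, two-sided, p = 0.8, and 0.8 after adjustment over 3 ratios). The difference of 0.02 was smaller than the spread between mice. Across the 6 libraries, Pearson's r of log2 CPM was 0.93 for C1qb with C1qc, 0.71 for C1qa with C1qb and 0.56 for C1qa with C1qc, given as a description of libraries that share their scaling.

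C3, the central component, lies on the minus strand of chromosome 17 from 57203970 to 57228136. It was at 111, 108 and 113 CPM in PKM2FL/FL and at 127, 117 and 118 CPM in PKM2ΔMAC. All PKM2ΔMAC libraries were above all PKM2FL/FL libraries, in CPM and in TPM, by a small margin (two-sided exact permutation test, p = 0.1, the smallest possible). Means were 111 ± 2.36 and 121 ± 5.83 CPM (SD, n = 3 each), and the log2 difference was 0.12 (SE 0.045, unadjusted p = 0.0241, adjusted p = 0.416), which is 8.87% with an interval from 1.42% to 16.9%. It stayed between 0.082 and 0.19 under 17 alternatives, with adjusted p between 0.134 and 0.771, and was called under 0 of them. Stromal cells are another known source of C3, and the summed stromal markers were 6313, 5004 and 6284 CPM in PKM2ΔMAC replicates 1 to 3 against 5424, 5590.1 and 5000.3 in PKM2FL/FL; their part in the level of C3 was not tested. In bulk RNA a change in the share of such cells and a change of RNA per cell cannot be told apart.

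Cfp encodes properdin, the only known positive regulator of complement, and lies on the minus strand of chromosome X from 20925454 to 20931555. It was at 147, 164 and 169 CPM in PKM2FL/FL and at 160.4, 191 and 171 CPM in PKM2ΔMAC. PKM2ΔMAC replicate 2 was the highest library, while replicate 1 lay within the PKM2FL/FL range and replicate 3 just above it. PKM2ΔMAC differed by 0.12 on the log2 scale (SE 0.076, adjusted p = 0.655), with an interval from -3.58% to 23.2%. Neutrophils also store properdin, and the summed neutrophil markers were 122, 90.1 and 170 CPM in PKM2ΔMAC replicates 1 to 3 against 20.3 to 48.8 CPM in PKM2FL/FL. Their part in the level of Cfp was not tested.

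Cfb encodes factor B, the serine protease of the alternative pathway convertase, a gene that IFN-γ and LPS are known to induce in macrophages. It had 3, 2 and 6 counts in PKM2FL/FL and 7, 4 and 0 counts in PKM2ΔMAC. With at most 7 counts per library it failed the filter on low counts and was not tested, and a difference was not detectable at so few counts. With no filter on low counts, the log2 fold change was -0.04 (unadjusted p = 0.972). Cfb lies on the minus strand of chromosome 17 from 34856374 to 34862518. It overlaps Gm20547, a protein-coding annotation on the same strand that joins Cfb to its neighbour C2. Gm20547 covers 79.5% of the 2825 exonic bases of Cfb and 42.8% of those of C2, and it has no row in the tables, in which the lowest sum over the 6 libraries is 4 counts. Reads in shared bases could have been left uncounted, depending on the counter's setting for overlapping genes, which is not given in the sources used here. The few counts of Cfb could therefore understate its expression, by an amount that was not measured. The within-library log2 ratio of Cfb to C3 (-8.69 ± 0.36 and -8.95 ± 0.67, SD, n = 3 each, exact permutation test, two-sided, p = 0.7, adjusted 0.8) carries the same limit.

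**Figure D4:**
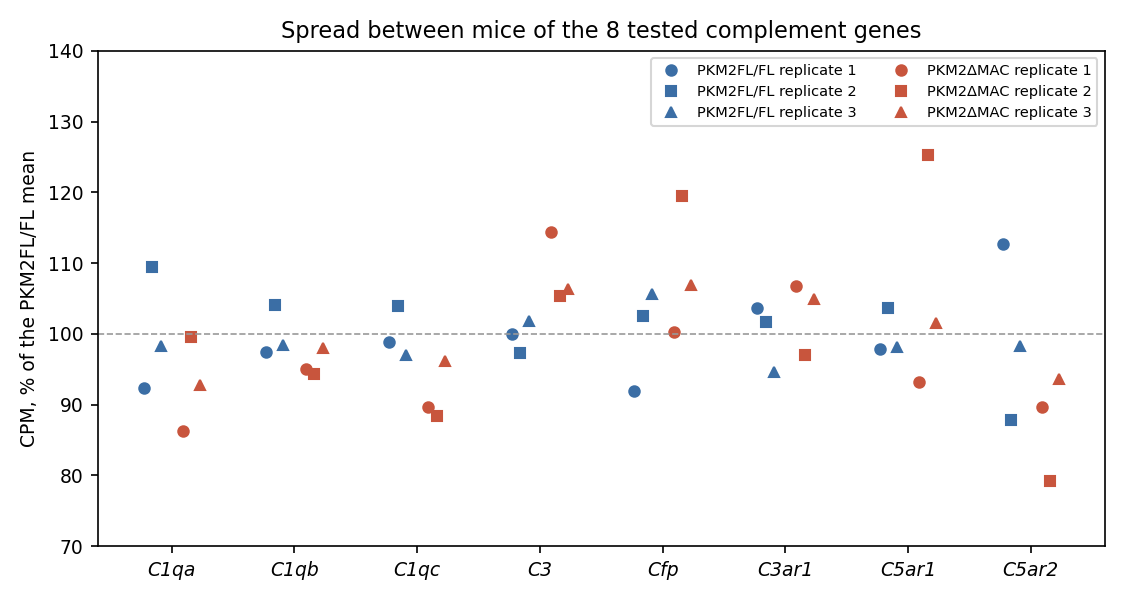
CPM of each tested complement gene in each library, as a percentage of the mean of the 3 PKM2FL/FL libraries (dashed line at 100%), with colour for genotype and symbol shape for the replicate. C1qc and C3 are the genes whose genotypes do not overlap, and C5ar1 and Cfp are highest in PKM2ΔMAC replicate 2; the axis does not start at 0.

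C3ar1, the G protein-coupled receptor for C3a, lies on the minus strand of chromosome 6 from 122847138 to 122856161. It was at 1321, 1297 and 1207 CPM in PKM2FL/FL and at 1361, 1236 and 1337 CPM in PKM2ΔMAC. The genotypes overlapped in CPM but not in TPM, with 1037 ± 51.9 and 1120.5 ± 25.7 TPM (SD, n = 3 each). On the TPM scale its log2 difference was 0.11, and 0.043 after Lyz2 was removed and the libraries rescaled. The log2 fold change in edgeR was 0.04 (SE 0.056, adjusted p = 0.864), and the interval ran from -5.86% to 12.4%.

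C5ar1 and C5ar2 both bind C5a. C5ar1 couples to G proteins and drives chemotaxis and activation, while C5ar2 does not couple to them. They are neighbours on the minus strand of chromosome 7, at 16246743 to 16259540 and 16234585 to 16244154, 2.59 kb apart, and a small nuclear RNA gene, Gm26473, lies within C5ar2 on the same strand. The 250 bases before a RefSeq start of each are shown because these adjacent genes were expressed at very different levels. The RefSeq start of C5ar1 lies inside the GENCODE span given above, so most of its window lies within that span.
C5ar1, chr7:16259339-16259588 (minus strand, GRCm38.p6): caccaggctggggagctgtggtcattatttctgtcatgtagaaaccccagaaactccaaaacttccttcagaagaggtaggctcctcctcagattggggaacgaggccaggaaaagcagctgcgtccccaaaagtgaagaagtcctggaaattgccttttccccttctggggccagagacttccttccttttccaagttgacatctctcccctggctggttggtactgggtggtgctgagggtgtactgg
C5ar2, chr7:16244155-16244404 (minus strand, GRCm38.p6): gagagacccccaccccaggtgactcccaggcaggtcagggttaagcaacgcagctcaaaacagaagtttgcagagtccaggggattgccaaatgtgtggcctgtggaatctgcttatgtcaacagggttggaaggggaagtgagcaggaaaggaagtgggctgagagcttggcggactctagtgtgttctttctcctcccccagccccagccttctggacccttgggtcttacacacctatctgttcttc
Neither window holds GAGGAA on either strand, so no letters are in capitals. A second RefSeq start of C5ar2 has a window with 1 GAGGAA, at chr7:16242332-16242581. Across the windows of all members with an entry in the RefSeq table (7 of 9 genes, 8 windows), GAGGAA was in 3.

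C5ar1 was at 317, 336 and 318 CPM in PKM2FL/FL and at 302, 406 and 329 CPM in PKM2ΔMAC. PKM2ΔMAC replicate 2 stood above all other libraries, and the other PKM2ΔMAC libraries lay on both sides of the PKM2FL/FL mean. Its log2 fold change was 0.1 with an SE of 0.11 (adjusted p = 0.829), with an interval from -10.3% to 27.4%, and it was -0.034 without PKM2ΔMAC replicate 2, so that this library set its direction. The same library had the highest sum of cell cycle genes, and the relation between them was not tested.

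C5ar2 was at 19.5, 15.2 and 17 CPM in PKM2FL/FL and at 15.5, 13.7 and 16.2 CPM in PKM2ΔMAC. PKM2FL/FL replicate 1 was the highest and PKM2ΔMAC replicate 2 the lowest library, and the genotypes overlapped. Its log2 fold change was -0.19 with an SE of 0.11 (adjusted p = 0.614), with an interval from -25.8% to 3.7%. Without PKM2FL/FL replicate 1 it was -0.092.

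The TPM of C5ar1 was 22.5, 30.6 and 25.8 times that of C5ar2 in PKM2FL/FL and 27, 41 and 28.1 times in PKM2ΔMAC. Transcripts of C5ar1 thus exceeded those of C5ar2 in all 6 libraries, with the highest ratio in PKM2ΔMAC replicate 2. The within-library log2 ratio was 4.7 ± 0.22 in PKM2FL/FL and 4.97 ± 0.33 in PKM2ΔMAC (SD, n = 3 each). The difference of 0.27 was within the spread between mice (exact permutation test, two-sided, p = 0.4, adjusted 0.8), and without PKM2ΔMAC replicate 2 it was 0.08.

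The remainder of the system was covered by a list of 55 complement genes, the 9 genes included, of which 48 were in the tables and 35 were tested. Of these, 2 were higher and 0 lower in PKM2ΔMAC at an adjusted p under 0.05, beside 0.285% and 0.127% of all genes tested. At an unadjusted p under 0.05, 9 of 35 passed, beside 9.83% of all genes, and the median log2 fold change of the list was 0.041. By role, calls numbered 0 of 8 in the classical pathway, 0 of 5 in the lectin pathway, 0 of 2 in the alternative pathway, 0 of 2 among terminal components, 1 of 9 among regulators and 1 of 9 among receptors.

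Cd55, decay-accelerating factor, which dismantles C3 convertases on the cell's own membrane, rose in PKM2ΔMAC. It had 201, 212 and 155 counts in PKM2FL/FL and 398, 470 and 412 counts in PKM2ΔMAC, which is 3.63 ± 0.527 and 8.12 ± 0.552 CPM (SD, n = 3 each). Its log2 fold change was 1.16 with an SE of 0.14 (adjusted p = 0.00953), with no overlap between genotypes. Adjusted p rose to 0.0742 without PKM2FL/FL replicate 1 and to 0.0686 without PKM2FL/FL replicate 3, so the call was lost there and on 3 of 4 TPM fits, with values from 0.94 to 1.25 on the log2 scale over all 17 alternatives. Cd55 lies on chromosome 1 from 130439027 to 130462744, overlaps the antisense gene Gm16083, and has a close paralog, Cd55b, that has no row in the tables, so reads of these genes could have been split or joined.

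Itgam, the alpha chain of complement receptor CR3 (CD11b), which binds C3 fragments on opsonised particles, was the other called gene. Its CPM was 197, 193 and 198 in PKM2FL/FL and 253, 272 and 266 in PKM2ΔMAC. The log2 difference of 0.43 (SE 0.04, adjusted p = 0.00272) was called under all 17 alternatives. Its partner chain Itgb2 was at 833 ± 129.7 and 869 ± 215 CPM (SD, n = 3 each; adjusted p = 0.961). Itgam is also expressed by neutrophils, whose summed markers did not overlap between genotypes, and their part in its level was not tested. Itgam overlaps Gm49368, an annotation on the same strand.

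Among the genes that did not pass after adjustment, Fcnb, a ficolin of the lectin pathway made by myeloid precursor cells, had 4, 6 and 10 counts in PKM2FL/FL and 62, 28 and 65 counts in PKM2ΔMAC (log2 fold change 2.93, SE 0.51, adjusted p = 0.0693). Its order over the PKM2ΔMAC libraries, highest in replicate 3 and lowest in replicate 2, was that of the summed neutrophil markers. It was called by DESeq2 (adjusted p = 9.24e-05), with no filter (0.0153) and without PKM2ΔMAC replicate 2 (0.00407). It was not called in the other alternatives that included it, where adjusted p reached 0.371 with a library left out, and its log2 value was between 1.41 and 1.43 on the TPM + 1 fits. Vsig4, the macrophage receptor CRIg for C3b, had 51, 19 and 16 counts in PKM2FL/FL and 97, 78 and 95 counts in PKM2ΔMAC (log2 fold change 1.65, SE 0.41, adjusted p = 0.22, and 0.012 with DESeq2). Without PKM2FL/FL replicate 1 Vsig4 was at 2.33 (adjusted p = 0.0574), and with another library left out adjusted p reached 0.649. Masp1 (0.66), Colec12 (0.15) and Colec10 (-0.82), all in the lectin pathway list, had an unadjusted p under 0.05 and adjusted p between 0.355 and 0.494. Without PKM2ΔMAC replicate 2, Masp1 was at 0.39 (adjusted p = 0.187) and Colec10 at -1.34 (adjusted p = 0.00709).

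**Figure D5:**
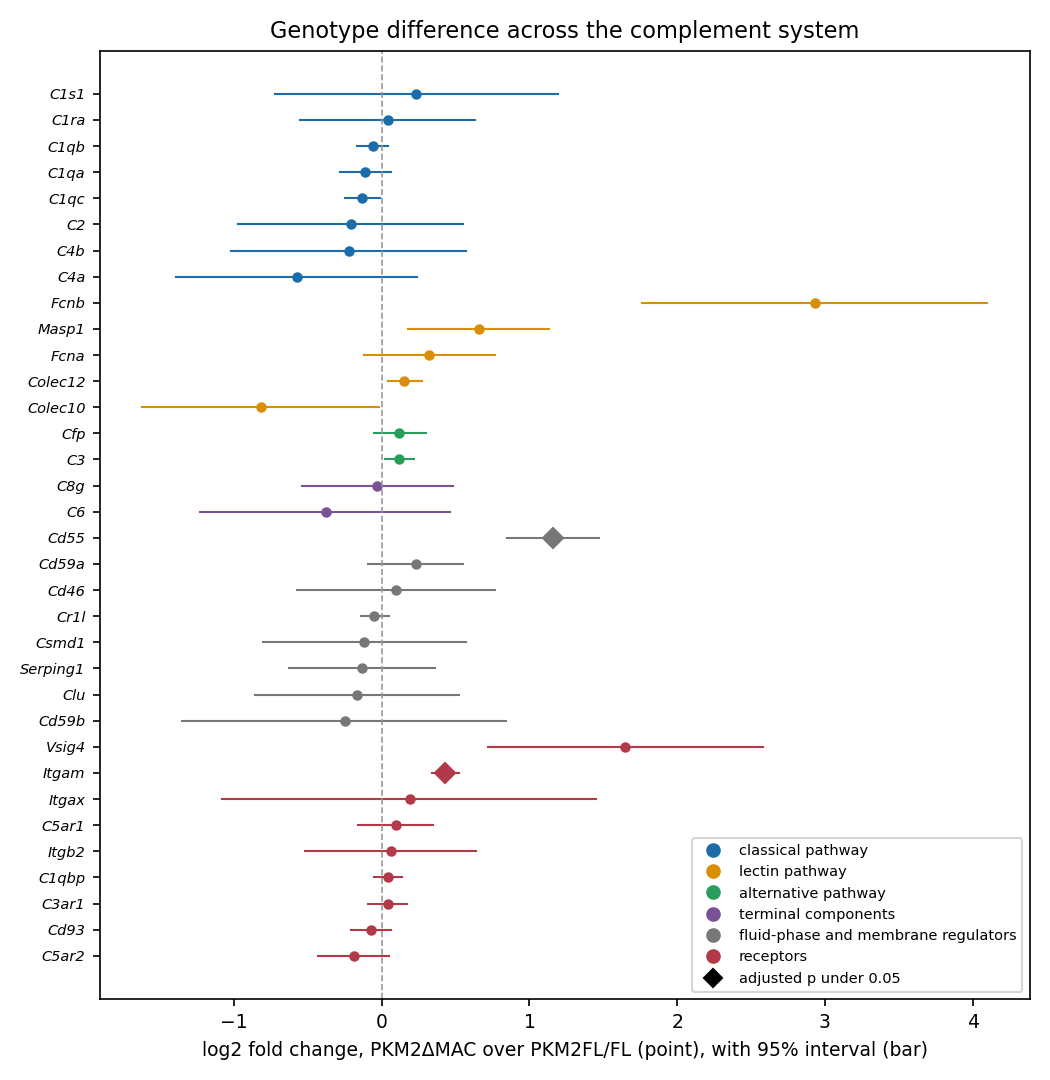
Log2 fold change of PKM2ΔMAC over PKM2FL/FL (points) with 95% intervals (bars) for the tested genes of the complement list that are reported here, coloured by role, with diamonds where the adjusted p of edgeR was under 0.05. Cd55 (1.16) and Itgam (0.43) are the called genes, and Fcnb (2.93) and Vsig4 (1.65) lie further out with wide intervals.

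The components that complete the cascade were scarce. Of the 7 terminal component genes, C6 and C8g were tested, at mean levels of 0.647 and 4.94 TPM, and Hc, which encodes C5, was at a mean of 0.0145 TPM. C2, of the classical pathway, was at 0.603 TPM, with the limit given for Cfb, and Cfd, factor D, at 0.0751 TPM. Among regulators, Serping1, the inhibitor of C1r and C1s, was at 452 TPM (adjusted p = 0.88) and Cr1l, the rodent membrane regulator Crry, at 21.4 TPM (adjusted p = 0.767). The 3 genes most like each complement gene by Pearson's r of log2 CPM over the 6 libraries, among 13079 genes with a mean of at least 1 CPM, were led by Nr2f6 for C1qa (r = 0.9933), Gnpda2 for C1qb (0.996), Ldb1 for C1qc (0.9926) and Gtse1 for C5ar1 (0.998). Between 19 and 82 genes reached r of at least 0.95 with a given complement gene, so with 6 libraries such likeness describes these libraries only.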

How the data were processed

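RNA of BMDMs labelled as LPS/IFN-γ-primed, from 3 PKM2FL/FL and 3 PKM2ΔMAC mice was sequenced by the authors from SMARTER libraries of total RNA. Tables deposited by the authors hold raw counts and TPM of the same libraries, by gene symbol. The submitters' processing notes name mm10, FastQC 0.12.1, Trim Galore 0.6.10, HISAT2 2.2.1, SAMtools 1.19.2 and Subread 2.0.6, without roles. Strandedness, annotation and the setting for overlapping genes are not given in the sources used here. Gene lengths implied by counts and TPM matched GENCODE M21 (GRCm38) within 1% for 98.6% of 8594 genes and 9 of 9 members.

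Counts were compared with edgeR 4.0.16 (R 4.3.3, limma 3.58.1) by the quasi-likelihood test with TMM, filterByExpr (16516 genes kept), robust estimation and Benjamini-Hochberg adjustment over all genes. The SE was taken from the log2 fold change and its F statistic. Single genes and ratios were also compared by exact permutation tests on log2 values with a pseudocount of 0.1. Depth was between 49957449 and 54524651 counts per library. Functions were tested on simulated data. Alternatives were DESeq2 1.42.0, RLE, other filters, non-robust estimation, a replicate block, equal depth, limma-trend on log2 TPM, and each library left out. Columns were matched to libraries by genotype and mouse number. Promoter sequences came from RefSeq (GRCm38.p6). No sample columns were left unused. All 9 members were named, and of the wider list those called, at an unadjusted p under 0.05, without overlap or at a mean of at least 10 TPM, and a few others chosen after their values were seen. The members and lists were chosen with earlier results of these data known. A gene of the wider list and a promoter motif are not reported here.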

Additional observations from a re-analysis of the deposited data

How the results depend on the processing

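The count of complement genes called stayed at 0 of 8 or 9 under all 17 alternatives. The log2 fold changes kept their direction except for C1qb, at 0.01 on each of the 3 planned TPM fits, and C5ar1, at -0.034 without PKM2ΔMAC replicate 2. Leaving out 1 library each moved C1qa between -0.16 and -0.036, C1qb between -0.081 and -0.033, C1qc between -0.17 and -0.1, C3 between 0.082 and 0.15, Cfp between 0.054 and 0.18, C3ar1 between 0.0017 and 0.083, C5ar1 between -0.034 and 0.18 and C5ar2 between -0.27 and -0.092. The log2 ratio differences moved between -0.05 and 0.06 for C1qa to C1qc, which turned to -0.02 without PKM2FL/FL replicate 1 and to -0.05 without PKM2ΔMAC replicate 2, between -0.54 and 0.11 for Cfb to C3, which turned only without PKM2ΔMAC replicate 3 (and was -1.39 on counts in place of TPM), and between 0.08 and 0.38 for C5ar1 to C5ar2. Genes called from the wider complement list numbered 2, against 4 with DESeq2, 3 with no filter on low counts, 1 on log2(TPM + 0.1), 1 on unfiltered TPM, 1 on TPM rescaled without Lyz2 (added after seeing the data) and between 1 and 4 with a library left out (4 without PKM2ΔMAC replicate 2, 1 without PKM2FL/FL replicate 1 or 3). Over all genes, 68 were called, against 302 with DESeq2, 120 with no filter, 41, 32 and 36 on the planned TPM fits, 32 on rescaled TPM, and between 22 (without PKM2FL/FL replicate 3) and 299 (without PKM2ΔMAC replicate 2) with a library left out. Apart from the turn of C1qb, which was absent after rescaling without Lyz2 (-0.06), the causes of these moves were not tested. Same-numbered mice deviated together with r of 0.156, 0.254 and 0.04, so the numbers were not taken as pairs; with a replicate block, 82 genes, 0 members and 2 genes of the wider list were called. Cfb, with at most 7 counts per library, entered only fits with no filter; whether depth or reads left uncounted in shared exons limits it was not tested.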

Other observations

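Several complement genes that connective tissue cells are known to express were lowest in PKM2ΔMAC replicate 2, a pattern picked out after the values were seen and given without a test. C4b, the classical pathway component, whose near-identical copy C4a can share its reads, was at 11.1, 13.3 and 13 CPM in PKM2FL/FL and at 12.2, 5.86 and 14 CPM in PKM2ΔMAC replicates 1 to 3. C1s1, the C1s protease, was at 16.1, 15.6 and 16.2 CPM in PKM2FL/FL and at 18.4, 10 and 28.1 CPM in PKM2ΔMAC. Serping1 was at 201 CPM in PKM2ΔMAC replicate 2 and between 285 and 327 CPM in the other 5 libraries, and C1ra, the C1r protease, at 18.6 CPM against 24.3 to 35.6 CPM. Of the 5 stromal markers, Dcn was also lowest there, with 296 counts against 670 to 2251. In CPM, Col3a1 was lowest there too, at 701 against 735 to 933 in PKM2FL/FL. However, Pdgfrb was highest there, with 8492 counts against 6581 to 7855, and the stromal sum of 5004 CPM was not the lowest (5000.3 in PKM2FL/FL replicate 3). Masp1, by contrast, was highest there, at 12.9 CPM against 5.55 to 8.66 CPM. C3, for which stromal cells are also a known source, was at 117 CPM there, above the 108 to 113 CPM of the PKM2FL/FL libraries.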
